A study of Homo sapiens with 27 samples.

Results

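The genes described here were 38 genes of glycolysis and of the transcriptional response to low oxygen, listed by name among the 60619 gene identifiers of the count tables. The rule used no measured value, but the list was drawn up with earlier results of these data known. They comprised 2 glucose transporters, 9 genes of upper glycolysis, 6 of lower glycolysis, 4 that decide the fate of pyruvate, 2 that make or break down fructose-2,6-bisphosphate, HIF1A with 2 of its hydroxylases, and 12 other hypoxia response genes. RNA sequencing was performed on 27 samples of REH, an established B-cell precursor leukemia line carrying the ETV6/RUNX1 fusion, so all values come from 1 cell line. Cells were harvested after 72 hours in medium alone (2 samples), with a non-targeting LNA GapmeR (NTC, 3 samples), or with 1 of 8 LNA GapmeRs against a lncRNA. An LNA GapmeR is an antisense oligonucleotide that leads RNase H to cut the paired RNA, and it was given at 10 µM by passive uptake. Each of these 8 groups had 3 samples, except that 2 were available for GapmeR1 of lnc-NKX2-3-1 and for GapmeR2 of lnc-ASTN1-1. The 5 medium and NTC samples served as controls.

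Each sample carries a replicate number from 1 to 3, and 8 of the 10 groups have a replicate 3 (medium and lnc-NKX2-3-1 GapmeR1 have none). According to the methods, the triplicates were executed on different days, but the labels do not say that equal numbers in different groups share a day. A culture day, an RNA preparation and a library batch therefore cannot be told apart behind a replicate number. P-values measure the spread between these samples. In the comparisons of replicate numbers, samples with the same number were counted as separate, although they may share a day or a batch. Those p-values and SE, and counts of groups in which replicate 3 was lowest or highest, therefore do not measure how replicate numbers vary on repetition.

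Glycolysis converts glucose to pyruvate in the cytosol. Glucose enters through transporters, is phosphorylated by hexokinases, committed by phosphofructokinase and split by aldolase, and the resulting trioses are oxidised by GAPDH and carried on to pyruvate by PGK1, phosphoglycerate mutase, enolase and pyruvate kinase. When oxygen is scarce, the prolyl hydroxylases encoded by the EGLN genes no longer mark HIF-1α for degradation, and the HIF-1α/ARNT dimer binds the core letters ACGTG or GCGTG near its targets. These targets include most glycolytic genes and also angiogenic, autophagic and chromatin genes such as VEGFA, BNIP3 and KDM3A. HIF-1α itself is regulated mainly as a protein, which RNA counts do not measure, and leukemic lymphoblasts are known for active glycolysis.

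Total counts per sample ranged from 14627110 to 22750945, and 71.48% to 77% of reads were assigned to a gene. In the samples of replicates 1 and 2 the 38 genes took 0.933% to 1.02% of all counts, and in those of replicate 3 they took 0.754% to 0.891%. Each targeted lncRNA was lower in every sample of its own GapmeRs than in all 5 controls, in CPM, the reads of a gene scaled to a common library size. Mean levels were 0.116 ± 0.084 CPM (SD, n = 5) against 0.764 ± 0.354 CPM (n = 5) for lnc-NKX2-3-1. For lnc-RTN4R-1 they were 5.26 ± 1.06 CPM (n = 6) against 20.9 ± 2.55 CPM (n = 5). lnc-NKX2-3-1 had at most 23 counts per sample, and its pooled difference had an adjusted p of 0.394 (edgeR). Of 11 markers of B-cell precursors, 10 reached a mean of 1 CPM, led by RAG1 (1680 CPM), and VPREB1 was listed at 0 in all samples.

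A promoter stretch is shown for 4 of the genes, because their levels differed between replicate numbers in every group that could be compared and their upstream sequence holds the core letters that HIF recognises. GPI, ALDOA, PGK1 and LDHA also met both conditions, and the lower genes shown are those with the largest decreases. The sequences are from RefSeq (GRCh38.p14), are the 250 bases before the first RefSeq start listed for the gene, and run 5′ to 3′ on its strand. For KDM3A, ENO1 and GAPDH the stretch lies inside the span of the gene in GENCODE, downstream of its outermost start. Other starts were not examined. Capitals mark ACGTG or GCGTG on either strand. PFKFB3 (chr10:6144671-6144920, plus strand) and KDM3A (chr2:86441121-86441370, plus strand) were higher in replicate 3, and ENO1 (chr1:8878687-8878936, minus strand) and GAPDH (chr12:6535014-6535263, plus strand) were lower.
PFKFB3: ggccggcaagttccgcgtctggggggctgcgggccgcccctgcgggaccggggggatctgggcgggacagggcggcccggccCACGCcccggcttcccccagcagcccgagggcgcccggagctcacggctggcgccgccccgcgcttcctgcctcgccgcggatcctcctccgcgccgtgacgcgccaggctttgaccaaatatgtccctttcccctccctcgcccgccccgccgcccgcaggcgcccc
KDM3A: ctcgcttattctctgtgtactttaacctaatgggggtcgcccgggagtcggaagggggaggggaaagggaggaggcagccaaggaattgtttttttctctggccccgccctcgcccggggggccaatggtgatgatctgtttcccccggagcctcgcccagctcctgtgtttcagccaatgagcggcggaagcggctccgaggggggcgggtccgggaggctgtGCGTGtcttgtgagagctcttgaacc
ENO1: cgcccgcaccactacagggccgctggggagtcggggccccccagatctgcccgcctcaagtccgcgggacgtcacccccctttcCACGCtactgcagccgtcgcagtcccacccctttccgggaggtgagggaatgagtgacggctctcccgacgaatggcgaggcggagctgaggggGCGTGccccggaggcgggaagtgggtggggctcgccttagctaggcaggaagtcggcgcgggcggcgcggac
GAPDH: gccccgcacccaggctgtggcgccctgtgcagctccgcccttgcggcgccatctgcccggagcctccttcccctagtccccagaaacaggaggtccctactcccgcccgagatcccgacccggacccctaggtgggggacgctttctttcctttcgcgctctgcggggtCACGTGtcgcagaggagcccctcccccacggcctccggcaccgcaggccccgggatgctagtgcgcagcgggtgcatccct

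PFKFB3 and KDM3A hold 1 such place, ENO1 holds 2, and the place in GAPDH lies inside the E-box CACGTG, which reads the same on both strands and is also bound by MYC and MAX family proteins. Promoters were found for 34 of the 38 genes. At least 1 place was held by 22 of these 34 (64.7%), compared with 43.2% of 35116 promoters of the same length. Among the genes tested below, 7 of 9 matched promoters of genes higher in replicate 3 held a place (77.8%), as did 10 of 17 promoters of genes lower in replicate 3 (58.8%). The E-box was present in 0 of these 9 and in 3 of these 17 (17.6%), compared with 6.34% of all promoters. These are counts of letters in a fixed window and not binding sites. The 35116 promoters were not matched to the members by base composition or level. They were also not limited to 1 per gene, as the members were.

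Levels between genes were compared as CPM per kilobase of exonic length. GAPDH (ENSG00000111640, chr12:6534512-6538374), which oxidises glyceraldehyde 3-phosphate, had the highest level, with a mean of 1210 and a range of 834 to 1390 over the 27 samples. It was followed by LDHB (314), ALDOA (188), ENO1 (186), PKM (106), LDHA (97.0) and PGK1 (95.6). The ranges of ALDOA and ENO1 overlapped, as did those of PKM, LDHA and PGK1, and the order of these neighbours within samples was not tested. PFKL (23.6) and PFKM (21.9), which encode the liver and muscle forms of phosphofructokinase, were close together, and PFKP, the platelet form, was lower (11.9). HIF1A stood at 9.01 and EGLN1, the main prolyl hydroxylase acting on HIF-1α, at 8.65. The hypoxia response genes VEGFA (1.51), P4HA2 (1.04), NDRG1 (0.45) and ADM (0.188) were among the least abundant, whereas BNIP3L (42.2) and DDIT4 (32.7) were the most abundant of their group. EGLN3 had 1 count over all samples and was at 0 in 26 of 27. CA9, a surface carbonic anhydrase often used as a hypoxia marker, had 0 to 5 counts per sample. Neither could be tested. The counts of GAPDH, PGK1, LDHB, ENO1, TPI1, PGAM1, PKM and ALDOA are uncertain in absolute level, because these genes have processed pseudogenes and reads mapping to several places were not counted.

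**Figure D1:**
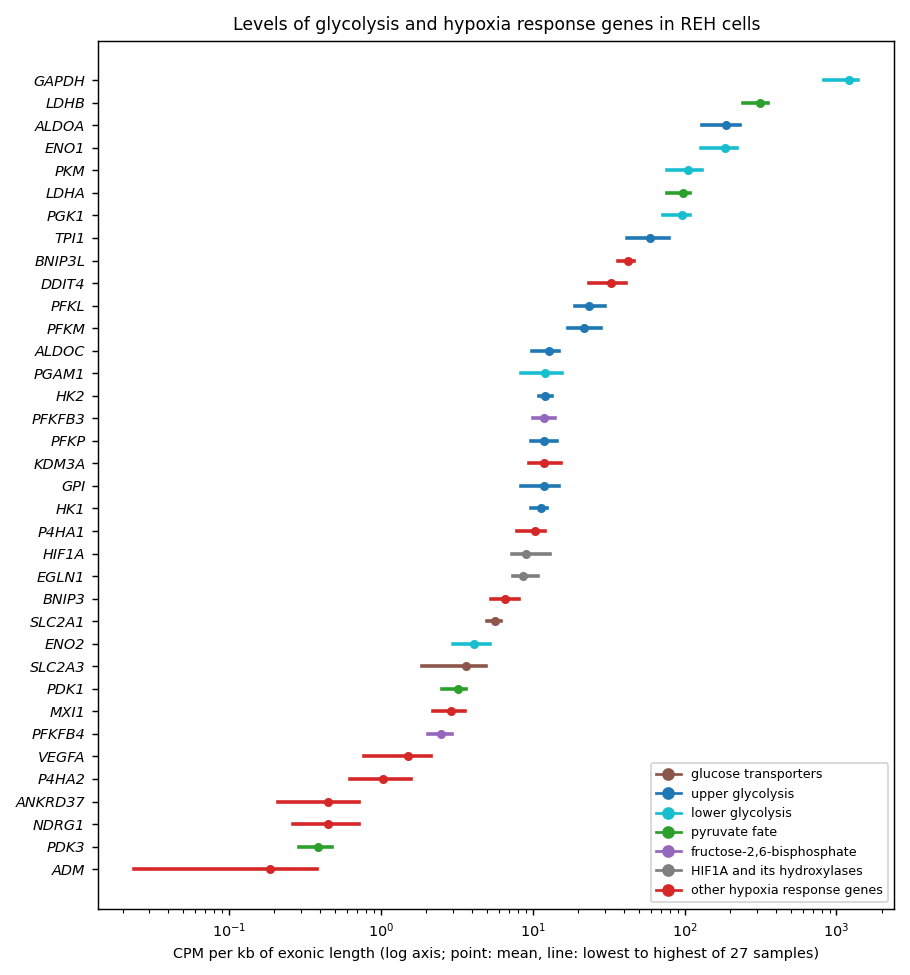
CPM per kilobase of exonic length on a log axis for the 36 genes detected in all 27 samples, with the mean as a point and the lowest to highest sample as a line, coloured by role. GAPDH lies highest with a mean of 1210 and ADM lowest with 0.188.

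The first question was whether these genes kept the same level across the replicate numbers. They did not. In replicate 3, GAPDH, ENO1, PKM and LDHA were lower than in replicates 1 and 2 regardless of the GapmeR, while VEGFA, P4HA2, NDRG1 and MXI1 were higher. Of the 36 genes tested, 29 (80.6%) passed an adjusted p of 0.05, compared with 56.4% of the 15284 genes in the same fit. The 15284 genes were not matched to the members by level, and 14 members were among the 3057 genes of highest mean CPM. Of the 36 genes, 12 were higher in replicate 3 (29.0% of all genes were) and 17 were lower (27.4% of all genes were). The median log2 fold change was -0.01 over the members and 0.01 over all genes, so the members moved to both sides. The test was edgeR's quasi-likelihood test over all 27 samples, with treatment group as a covariate. The 8 samples of replicate 3 did not overlap with the other 19 for 8 of the 35 members with a mean of at least 10 counts, compared with 5.15% of all such genes. These 8 were GAPDH, PGK1, PGAM1, ENO1, LDHA and LDHB, which were lower, and VEGFA and MXI1, which were higher.

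**Figure D2:**
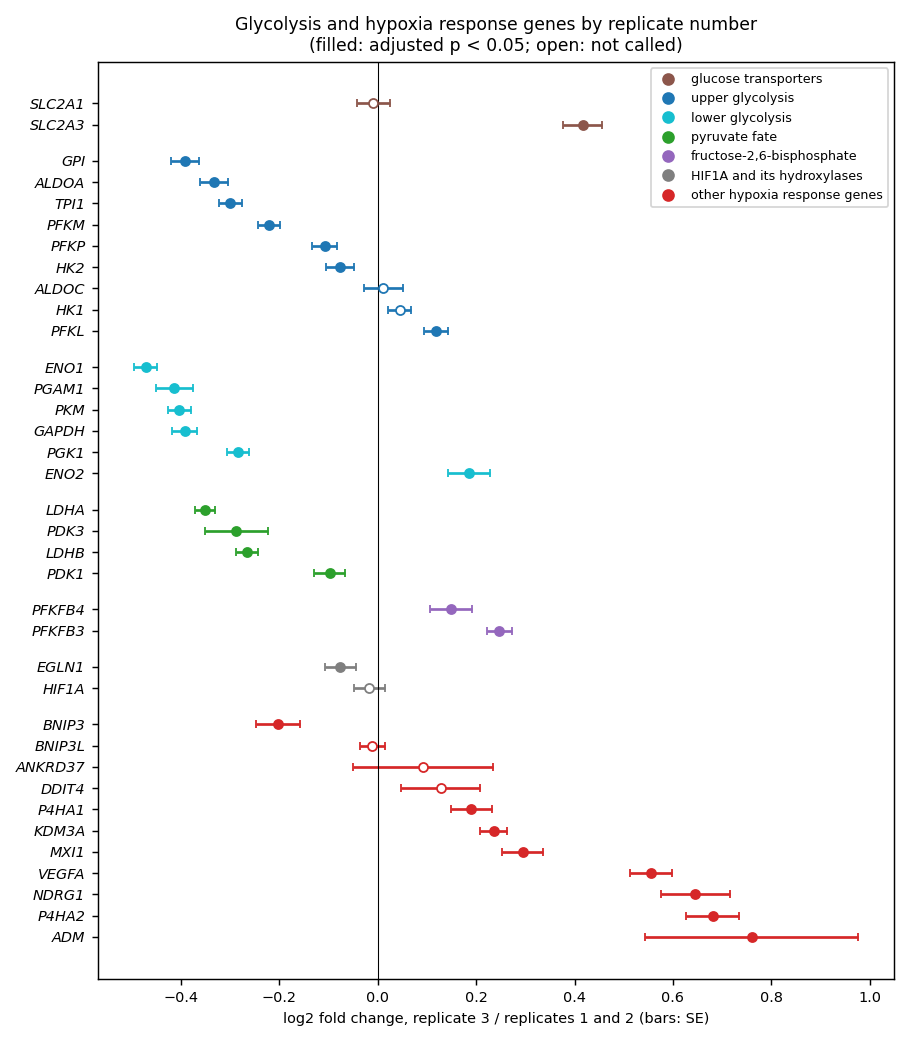
Log2 fold change of replicate 3 over replicates 1 and 2 (horizontal axis, bars are standard errors) for the 36 genes tested, grouped by role, with filled points for an adjusted p under 0.05. Enzymes of lower glycolysis and pyruvate fate lie left of 0 except ENO2, and the other hypoxia response genes that passed the test lie to the right except BNIP3.

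Lower glycolysis held the 4 largest decreases (ENO1, PGAM1, PKM and GAPDH), but GPI of upper glycolysis was level with GAPDH (both -0.39). All 6 genes of lower glycolysis passed the test, 5 of them lower. ENO1 (ENSG00000074800, chr1:8861000-8879190), the main enolase, had a lowest, median and highest level of 950, 1060 and 1165 CPM in the 19 samples of replicates 1 and 2, and of 665, 763 and 858 CPM in the 8 samples of replicate 3. All samples of replicate 3 thus lay below all others. The log2 fold change was -0.47 ± 0.02 (SE, adjusted p = 1.3e-18, edgeR). GAPDH went from 2899, 3123 and 3342 CPM to 1997, 2397 and 2705 CPM (-0.39 ± 0.03). In all 8 groups with a replicate 3, that sample was the lowest of its group for GAPDH, PGK1, PGAM1, ENO1 and PKM. PKM, pyruvate kinase, decreased by 0.40 on the log2 scale with 7 of 8 samples below the range of the others, PGAM1, phosphoglycerate mutase, by 0.41 and PGK1, phosphoglycerate kinase, by 0.28. The exception was ENO2, the enolase best known from neurons. Its levels were 12.8, 17.3 and 19.3 CPM in replicates 1 and 2 and 17.35, 19.9 and 22.4 CPM in replicate 3, with 6 of 8 samples above all others. The log2 fold change was 0.19 ± 0.04, and the call was lost without replicate 1 (adjusted p = 0.059, edgeR).

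The genes that decide the fate of pyruvate were all lower in replicate 3 (4 of 4). LDHA (ENSG00000134333, chr11:18394560-18408425), which makes lactate from pyruvate, had 583, 627 and 654 CPM as lowest, median and highest in replicates 1 and 2, and 459, 498 and 508 CPM in replicate 3. The ranges did not overlap and the log2 fold change was -0.35 ± 0.02. LDHB, the other lactate dehydrogenase subunit, decreased by 0.27 on the log2 scale, also without overlap. PDK1 and PDK3, kinases that switch off pyruvate dehydrogenase, had log2 fold changes of -0.10 ± 0.03 and -0.29 ± 0.06. The ranges of PDK1 overlapped widely, and its call was lost without replicate 1 (adjusted p = 0.20).

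Upper glycolysis was mixed. Of its 9 genes, 6 were lower, 1 was higher and 2 did not pass the test. GPI, which isomerises glucose 6-phosphate, decreased by 0.39 on the log2 scale, ALDOA, the main aldolase, by 0.33, and TPI1, triosephosphate isomerase, by 0.30. Replicate 3 was the lowest sample in 8 of 8 groups for these 3 genes and for PFKM, which decreased by 0.22. HK2, an inducible hexokinase, and PFKP had small differences (-0.08 ± 0.03 and -0.11 ± 0.03) that depended on replicate 2. Without it, HK2 had an adjusted p of 0.39 and PFKP a log2 fold change of 0.003. PFKL was higher by 0.12 ± 0.02. HK1, the ubiquitous hexokinase, and ALDOC, the brain aldolase, did not pass (0.04 ± 0.02 and 0.01 ± 0.04).

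Both genes for the bifunctional enzymes that set fructose-2,6-bisphosphate, an activator of phosphofructokinase, were higher. PFKFB3 had 61.7, 66.9 and 79.5 CPM as lowest, median and highest in replicates 1 and 2 and 78.9, 83.2 and 86.1 CPM in replicate 3. All but 1 sample of replicate 3 exceeded every other sample, and the log2 fold change was 0.25 ± 0.03. PFKFB4 differed by 0.15 ± 0.04, with a call lost without replicate 1 (adjusted p = 0.060). Of the glucose transporters, SLC2A3 (GLUT3) was higher by 0.42 ± 0.04, and SLC2A1 (GLUT1) did not pass the test (-0.01 ± 0.03).

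Of the 11 other hypoxia response genes tested, 7 were higher in replicate 3, 1 was lower and 3 did not pass. VEGFA (ENSG00000112715, chr6:43770184-43786487), the angiogenic growth factor, had 11.3, 19.2 and 24.2 CPM as lowest, median and highest in replicates 1 and 2 and 24.8, 28.9 and 31.2 CPM in replicate 3. The ranges did not overlap, and the log2 fold change was 0.56 ± 0.04 (adjusted p = 7.3e-14, edgeR). MXI1, a MAX-binding antagonist of MYC, went from 13.0, 16.2 and 18.4 CPM to 18.7, 19.8 and 21.1 CPM, also without overlap (0.29 ± 0.04). P4HA2 and P4HA1, subunits of the collagen prolyl 4-hydroxylase, were higher by 0.68 ± 0.05 and 0.19 ± 0.04, NDRG1, a stress-responsive gene, by 0.65 ± 0.07 and KDM3A, a histone H3K9 demethylase, by 0.24 ± 0.03. Replicate 3 was the highest sample in 8 of 8 groups for VEGFA, MXI1, P4HA2, NDRG1, KDM3A and PFKFB3. ADM, the peptide hormone adrenomedullin, had 1 to 18 counts per sample and a log2 fold change of 0.76 ± 0.22, and its call was lost without replicate 2 (adjusted p = 0.13). BNIP3, a mitophagy receptor, was lower (-0.20 ± 0.04). Its relative BNIP3L and DDIT4, an inhibitor of mTORC1, did not pass the test (-0.01 ± 0.03 and 0.13 ± 0.08), nor did ANKRD37 (0.09 ± 0.14).

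**Figure D3:**
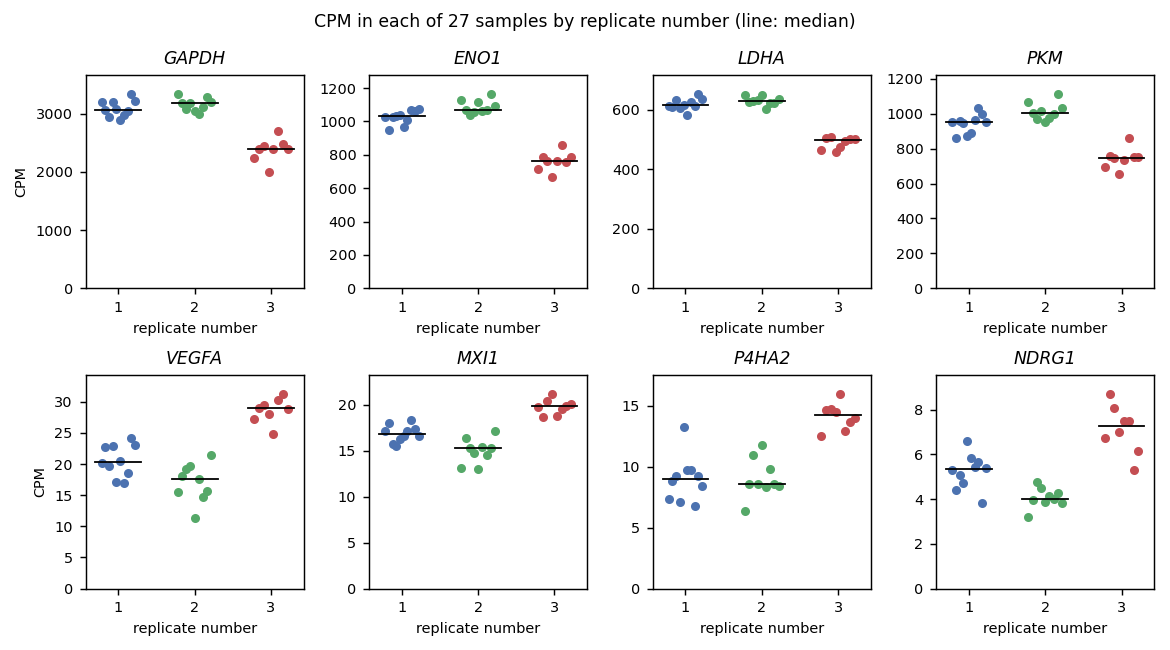
CPM of 8 genes in each of the 27 samples (points) by replicate number, with the median as a line. For GAPDH, ENO1 and LDHA the 8 samples of replicate 3 lie below all others, for PKM 7 of 8 do, and for VEGFA and MXI1 all 8 lie above.

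HIF1A mRNA did not pass the test. Its lowest, median and highest values were 37.9, 45.3 and 67.2 CPM in replicates 1 and 2 and 40.7, 44.4 and 49.7 CPM in replicate 3, with a log2 fold change of -0.02 ± 0.03 (adjusted p = 0.67, edgeR). EGLN1 passed narrowly (-0.08 ± 0.03, adjusted p = 0.041) and lost its call with DESeq2 (adjusted p = 0.060) and in most other alternatives. Genes of the same pathways outside the 38 were also counted, against the 56.4% of all genes called. Of 20 other glycolysis genes, 12 were tested, of which 2 were higher and 4 lower in replicate 3 (50% called). Of 8 other genes of the HIF pathway, 6 were tested, of which 1 was higher (CITED2) and 1 lower (ARNT, the HIF-1α partner, -0.12 ± 0.03), or 33.3% called. Of 24 other hypoxia response genes, 22 were tested, of which 12 were higher and 5 lower (77.3% called), with a median log2 fold change of 0.12. The largest differences were those of SLC16A3, the lactate exporter MCT4 (1.37 ± 0.21, at 0.834 against 0.324 CPM), LOXL2, a lysyl oxidase (0.57 ± 0.08), HMOX1, heme oxygenase (0.42 ± 0.14), BHLHE40, a transcriptional repressor (0.40 ± 0.06), STC2 (0.38 ± 0.13) and FAM162A (-0.37 ± 0.04).

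Other measures were also compared by replicate number, and some moved with replicate 3. The summed CPM of 5 T-cell markers was 7.83 to 16.4 in replicates 1 and 2 and 15.3 to 24.0 in replicate 3. Of these markers, 1 (TRAC) exceeded a mean of 1 CPM, and CD3D and CD3G were at 0 everywhere. For 5 markers of stroma and endothelium the sums were 13.7 to 21.2 and 22.4 to 27.9 CPM, with COL3A1 at 0. For 5 myeloid markers they were 86.2 to 299 and 115 to 454 CPM, led by MPO, with medians of 101 and 139 CPM and overlapping ranges. Myeloid markers also differed by treatment. With pooled lnc-RTN4R-1 GapmeRs against controls, 1 of 3 tested was called higher (0.476% of all genes were called). The median log2 fold change of these 3 was 1.13. The 4 erythroid markers summed to at most 0.057 CPM. The sum of the 11 B-cell precursor markers was 5290 to 6290 and 4990 to 6040 CPM. Highly expressed genes in general were slightly lower in replicate 3: among the 3057 genes of highest mean CPM, the median log2 fold change was -0.05, and over the 14 members among them it was -0.29. Among the 3057 genes with a mean of 2.16 to 12.6 CPM it was 0.07, and over the 3 members among them 0.65. By exonic length, the 3016 shortest genes had a median of -0.07 and the 3016 longest ones of 0.04. The part of these measures in the result was not tested, and a change in the make-up of a culture cannot be told apart from a change of RNA per cell in bulk samples.

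Replicates 1 and 2 were also compared with each other. This comparison shares samples with the previous one, so the values are given side by side only. Of the 36 genes, 16 (44.4%) passed the test, compared with 24.7% of all genes, with 7 higher in replicate 2 (12.5% of all genes) and 9 lower (12.1% of all genes). The genes lower in replicate 2 were SLC2A3, HIF1A, EGLN1, PDK1 and 5 other hypoxia response genes (VEGFA, NDRG1, MXI1, KDM3A and BNIP3L). The genes higher in replicate 2 were 4 of upper glycolysis (GPI, PFKM, PFKP, ALDOA) and 3 of lower glycolysis (PGAM1, ENO1, PKM). SLC2A3 had 23.7, 27.2 and 35.5 CPM as lowest, median and highest in replicate 1, 13.6, 18.7 and 26.4 CPM in replicate 2 and 28.6, 31.8 and 35.7 CPM in replicate 3. Its log2 fold change of replicate 2 over 1 was -0.57 ± 0.04, the largest among the 16. VEGFA had medians of 20.3, 17.55 and 28.9 CPM in replicates 1, 2 and 3, and NDRG1 of 5.37, 4.004 and 7.25 CPM. HIF1A was lower in replicate 2 by 0.18 ± 0.03 on the log2 scale, with medians of 47.7, 43.8 and 44.4 CPM. The calls of EGLN1 and PDK1 were lost without the filter on low counts (adjusted p = 0.061 and 0.074, edgeR). The increases ranged from 0.09 ± 0.02 for ENO1 to 0.22 ± 0.03 for PFKP.

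The second question was whether any GapmeR changed these genes. Unless a replicate block is named, these tests did not take the replicate number into account. PFKL, the liver phosphofructokinase, was the gene that passed the test most often: it was higher with both GapmeRs against lnc-RTN4R-1 and with GapmeR1 against lnc-NKX2-3-1. The oligonucleotides given in these 3 groups are shown to compare their letters.
lnc-RTN4R-1 GapmeR1: gcattcatgggttaag
lnc-RTN4R-1 GapmeR2: tgctgagacatctagg
lnc-NKX2-3-1 GapmeR1: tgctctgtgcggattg
They share no run longer than 4 bases, the longest being between lnc-RTN4R-1 GapmeR2 and lnc-NKX2-3-1 GapmeR1. The GapmeRs were not compared with PFKL or any other transcript, so pairing with these was not tested.

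PFKL (ENSG00000141959, chr21:44300051-44327376) stood at 170 and 170 CPM in the medium samples and at 168, 190 and 199 CPM in NTC. With lnc-RTN4R-1 GapmeR1 it was at 249, 264 and 261 CPM, with GapmeR2 at 220, 231 and 266.5 CPM, and with lnc-NKX2-3-1 GapmeR1 at 258 and 265 CPM. Each of these 8 samples exceeded all 5 controls. For both lnc-RTN4R-1 GapmeRs pooled, the log2 fold change over controls was 0.47 ± 0.07 (adjusted p = 0.0056, edgeR), and PFKL was the only member of 35 tested that passed, where 0.476% of all genes did. The call was lost without replicate 1 (adjusted p = 0.36), without replicate 2 (0.33) and with NTC alone as control (0.15), with log2 fold changes of 0.42 to 0.47. With the replicate number as a block the log2 fold change was 0.45 ± 0.05, and 1.96% of all genes passed. In single comparisons PFKL had log2 fold changes of 0.52 ± 0.07 with lnc-RTN4R-1 GapmeR1, 0.42 ± 0.08 with GapmeR2 and 0.55 ± 0.08 with lnc-NKX2-3-1 GapmeR1. These comparisons share the 5 controls. PFKL lay at 184 to 214 CPM in all samples of the other 5 GapmeRs, which overlapped with the controls. With the replicate block it was also called higher with lnc-NKX2-3-1 GapmeR2 and with pooled lnc-TIMM21-5 GapmeRs. There, 2.72% and 1.32% of all genes passed. In the same 3 groups another targeted lncRNA, lnc-ASTN1-1, was lower than in all controls, although their GapmeRs were not directed against it. It had a mean of 25.3 ± 1.499 CPM (SD, n = 5) in controls, 16.8 ± 1.86 CPM (n = 3) and 16.1 ± 0.47 CPM (n = 3) with lnc-RTN4R-1 GapmeR1 and GapmeR2, and 18.1 ± 1.66 CPM (n = 2) with lnc-NKX2-3-1 GapmeR1. The log2 fold changes were -0.59 ± 0.09, -0.65 ± 0.08 and -0.47 ± 0.10, with adjusted p of 0.0044, 0.00028 and 0.0053 (edgeR). With its own GapmeRs, lnc-ASTN1-1 was at 9.76 to 14.6 CPM, while PFKL was at 184 to 214 CPM. lnc-RTN4R-1 was also below all controls in the same 3 groups, including lnc-NKX2-3-1 GapmeR1, which was not directed against it. There it had a mean of 15.75 ± 2.71 CPM (SD, n = 2) against 20.85 ± 2.55 CPM (n = 5) in controls. The log2 fold change was -0.40 ± 0.14 (adjusted p = 0.061, edgeR), and -0.42 ± 0.09 with the replicate block (adjusted p = 0.00021). The part of either lncRNA in the PFKL result was not tested.

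**Figure D4:**
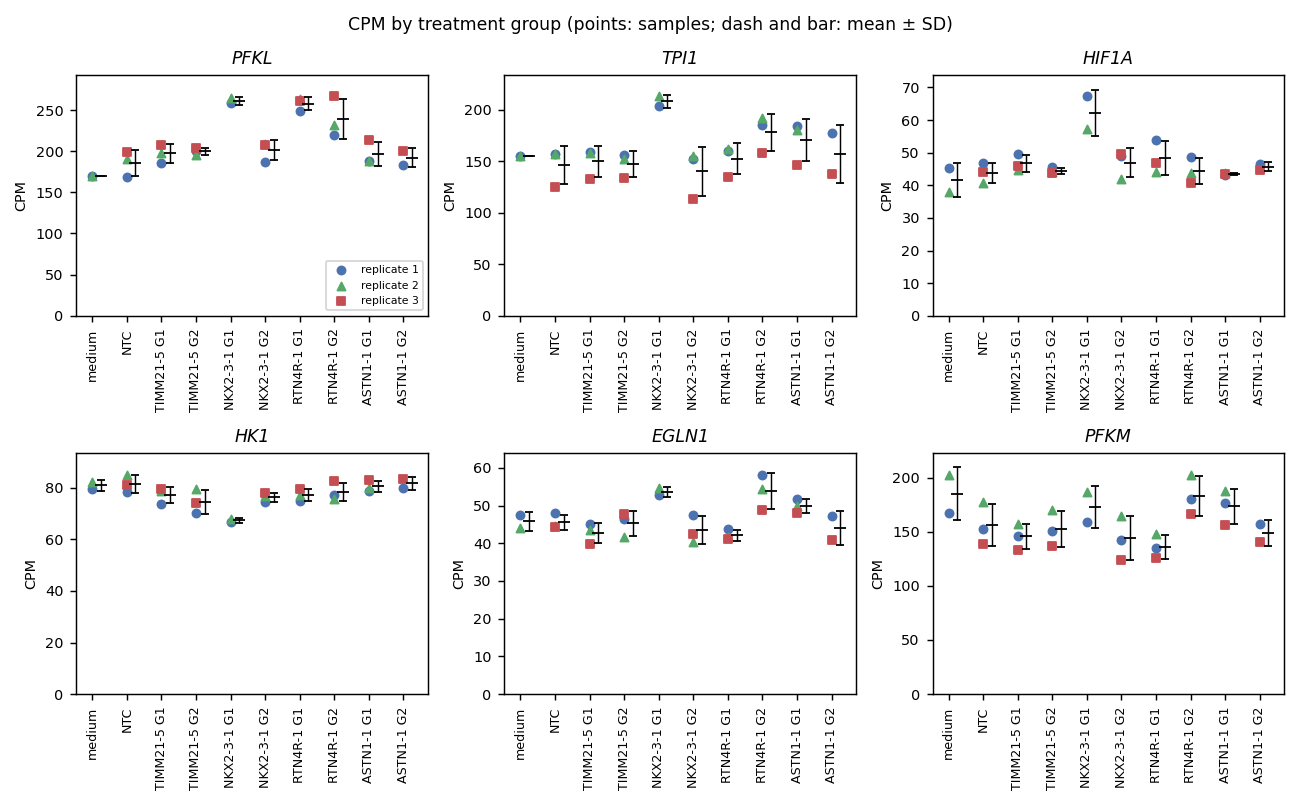
CPM of PFKL, TPI1, HIF1A, HK1, EGLN1 and PFKM in the 10 groups, with symbols for replicate number and the mean ± SD beside them (G1 and G2 are GapmeR1 and GapmeR2, n = 2 or 3). PFKL is at 220 to 266.5 CPM with NKX2-3-1 G1 and both RTN4R-1 GapmeRs and at 168 to 214 CPM elsewhere.

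lnc-NKX2-3-1 GapmeR1 changed 5 of 35 members against controls (14.3%), compared with 17.6% of all genes, so the share was near the background. Besides PFKL, TPI1, HIF1A and EGLN1 were higher and HK1 was lower, and for all 5 the treated samples lay outside the range of the controls. HIF1A (ENSG00000100644, chr14:61695513-61748259) had 67.2 and 57.1 CPM with this GapmeR, 45.3 and 37.9 CPM in medium and 46.7, 40.6 and 44.03 CPM in NTC. Its log2 fold change was 0.54 ± 0.10 (adjusted p = 0.0016, edgeR). TPI1 had 204 and 213 CPM against 124.5 to 157 CPM in controls (0.49 ± 0.09), where the lowest control was the replicate 3 of NTC. EGLN1 differed by 0.24 ± 0.08, and HK1 by -0.26 ± 0.07, at 66.7 and 68.0 CPM against 78.3 to 85.1 CPM. This GapmeR had no replicate 3. Without the replicate 3 of NTC all 5 calls held and 6 members passed, with a log2 fold change of 0.43 for TPI1. Without replicate 1 no member passed, and without replicate 2 only HIF1A did (adjusted p = 0.027), since 1 treated sample was then left and was assumed to vary like the controls. With the replicate block, 11 of 35 passed (36.4% of all genes did): the same 5, P4HA2 (0.70 ± 0.12), and, as lower genes, GPI, ALDOA, ALDOC, PDK1 and VEGFA (-0.42 ± 0.09). VEGFA and P4HA2, which were both higher in replicate 3, thus differed in opposite directions with this GapmeR.

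The lnc-RTN4R-1 GapmeRs each had PFKL as the only member called against controls, where 1.59% of all genes were called for GapmeR1 and 6.62% for GapmeR2. With the replicate block, 7 members were called for GapmeR1 (9.39% of all genes) and 10 for GapmeR2 (22.4% of all genes). For GapmeR1 these included, besides PFKL, ENO2 (0.36 ± 0.08), P4HA2 (0.34 ± 0.10), PFKFB3 (0.18 ± 0.05) and HIF1A (0.17 ± 0.05) as higher, and PFKM (-0.26 ± 0.05) and VEGFA (-0.22 ± 0.07) as lower. For GapmeR2, 9 were higher, among them TPI1 (0.29 ± 0.05), PFKFB4 (0.27 ± 0.08), EGLN1 (0.25 ± 0.06), ALDOA (0.20 ± 0.05), PKM (0.19 ± 0.05), PFKP, PFKM (both 0.17 ± 0.05) and ENO1 (0.15 ± 0.05), and PDK1 was lower (-0.17 ± 0.06).

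PFKM thus differed between the GapmeRs against the same lncRNA. It had 135, 148 and 125.5 CPM with GapmeR1 and 180, 203 and 167 CPM with GapmeR2, without overlap, and the direct log2 fold change of GapmeR1 over GapmeR2 was -0.42 ± 0.09 (adjusted p = 0.023, edgeR). EGLN1 had 43.8, 41.7 and 41.0 CPM against 58.2, 54.5 and 48.9 CPM (-0.35 ± 0.08, adjusted p = 0.036). These 2 were the members called, where 5.92% of all genes were. Both calls were lost without replicate 1 or replicate 2, where none of the members passed, and 6 members passed without replicate 3. With the block 13 members passed (30.9% of all genes), 8 lower and 5 higher with GapmeR1, among them DDIT4 (0.31 ± 0.07), PDK1 (0.27 ± 0.06) and BNIP3L (0.21 ± 0.04) as higher and ALDOA (-0.25 ± 0.04) as lower.

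Between the GapmeRs against lnc-NKX2-3-1, 3 members differed directly, where 13.0% of all genes did. With GapmeR1 over GapmeR2 these were TPI1 (0.57 ± 0.13), HIF1A (0.41 ± 0.11) and PFKL (0.38 ± 0.09). PFKL had 258 and 265 CPM with GapmeR1 and 187, 209 and 208 CPM with GapmeR2. TPI1 had 204 and 213 CPM against 152.5, 155 and 113 CPM, and HIF1A had 67.2 and 57.1 CPM against 49.1, 41.8 and 49.7 CPM. The groups did not overlap for any of the 3. With the block, which leaves 1 residual degree of freedom, 19 members passed (41.8% of all genes), with TPI1 at 0.44 ± 0.04, HIF1A at 0.46 ± 0.05 and SLC2A3 lowest at -0.55 ± 0.08. Without replicate 1 the calls of HIF1A and PFKL were lost (adjusted p = 0.53 and 0.41), without replicate 2 only TPI1 passed, and without replicate 3, 5 members did.

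In the remaining comparisons edgeR called 0 members, as did DESeq2 in those against the controls, the only ones of these in which it was run. For each of them, the share of all genes called at an adjusted p under 0.05 is given first, and then the members and all genes with an unadjusted p under 0.05. With pooled GapmeRs against lnc-NKX2-3-1, 0% of all genes were called, and 3 of 35 members (8.57%) and 7.43% of all genes had an unadjusted p under 0.05. With those against lnc-TIMM21-5, 0.00665% were called, and 5 members (14.3%) and 5.38% of all genes passed unadjusted. With those against lnc-ASTN1-1, 0.0136% were called, and 3 members (8.57%) and 5.64% of all genes passed unadjusted. Among single GapmeRs, 0% of all genes were called for lnc-NKX2-3-1 GapmeR2 (2 members, 5.71%, and 4.07% of all genes unadjusted), 0.0790% for lnc-TIMM21-5 GapmeR1 (3 members, 8.57%, and 5.07%) and 0.0593% for lnc-TIMM21-5 GapmeR2 (1 member, 2.86%, and 2.51%). For lnc-ASTN1-1, 0.718% were called with GapmeR1 (1 member, 2.86%, and 6.84% unadjusted) and 0.0130% with GapmeR2 (3 members, 8.57%, and 2% unadjusted). Between GapmeR1 and GapmeR2, 0.0784% were called for lnc-TIMM21-5 (0 of 36 members and 1.63% of all genes unadjusted) and 0.146% for lnc-ASTN1-1 (3 of 36 members, 8.33%, and 3.1%). Between NTC and medium, 0% were called (3 members, 8.57%, and 4.44% unadjusted). At most 5 members passed unadjusted in any of these comparisons.

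With the replicate block some of these comparisons gave calls. For lnc-NKX2-3-1 GapmeR2, 5 members passed (2.72% of all genes): PFKFB3 (0.22 ± 0.05) and PFKL (0.15 ± 0.04) were higher and PFKM (-0.18 ± 0.04), GPI (-0.15 ± 0.04) and GAPDH (-0.13 ± 0.04) were lower. PFKFB3 was also higher with lnc-TIMM21-5 GapmeR1 (0.25 ± 0.05, where 2.79% of all genes passed) and, together with PFKL, with pooled lnc-TIMM21-5 GapmeRs (1.32%). TPI1 was higher with lnc-ASTN1-1 GapmeR1 (0.23 ± 0.04, 4.86%) and with pooled lnc-ASTN1-1 GapmeRs (0.205 ± 0.03, 0.881%). Between the lnc-ASTN1-1 GapmeRs, PFKM (0.16 ± 0.04) and PDK1 (-0.23 ± 0.06) passed (4.29%). Finally, between NTC and medium, DDIT4 (0.38 ± 0.06), SLC2A3 (0.38 ± 0.09) and KDM3A (0.17 ± 0.05) were higher and PFKM (-0.16 ± 0.04) was lower with the non-targeting GapmeR, where 1.53% of all genes passed and 1 residual degree of freedom was left. DDIT4 had 58.9 and 50.0 CPM in medium and 69.7, 72.0 and 70.3 CPM in NTC, without overlap.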

How the data were processed

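RNA of 27 REH samples was sequenced. Raw counts of uniquely mapped reads per gene were deposited in 3 strand columns, which the authors obtained from STAR alignments against hg38. The annotation release is not given in the sources used here. Labels describe ribodepleted stranded total RNA, whereas the methods describe poly-A selection. Column 4, which held 95.27% of the strand-specific counts, was used. Genes were named with GENCODE release 44 (GRCh38), which matched 56434 identifiers and all 38 members. Where a member overlaps another gene on its strand, reads in the shared part were not counted.

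After TMM normalisation and filterByExpr (minimum count 10, total 15), robust quasi-likelihood tests were run on the counts in edgeR (4.0.16) under R (4.3.3). P-values were adjusted by Benjamini-Hochberg over all genes tested, and an adjusted p under 0.05 is called. SE were derived from the F statistics. Replicate numbers were compared over all 27 samples with treatment group as covariate (15 residual degrees of freedom), and treatments on their own samples without covariate. CPM used TMM library sizes. The fits were tested on simulated counts. Alternatives were DESeq2 (1.42.0), RLE normalisation, no filter, unstranded counts, NTC alone as control, groups with all 3 replicate numbers, the replicate number as a block, and each replicate or group left out.

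All 38 members are named, and of the other pathway genes the 6 called in replicate 3 with the largest change, beside ARNT and CITED2, which were named after their values were seen. The members and lists were chosen with earlier results of these data known. Deviations of samples from their group means correlated with a mean r of 0.263 over 109 pairs with the same replicate number (94 over 0.1) and of -0.13 over 218 pairs with different numbers. Since the methods place the triplicates on different days, the numbers may pair the samples. The main treatment tests ignored this pairing, and only the fits with the replicate block took it into account. Blocked values are given where they change a call. Promoters were taken from RefSeq (GRCh38.p14), for each member at the first start listed, and GapmeR sequences from the oligonucleotide list of the study.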

Additional observations from a re-analysis of the deposited data

Results flagged for a closer look

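For 5 members the GapmeRs against the same lncRNA differed from each other when compared directly with edgeR, without the replicate block. Between lnc-NKX2-3-1 GapmeR1 and GapmeR2 the log2 fold changes were 0.38 for PFKL, 0.57 for TPI1 and 0.41 for HIF1A. Of all genes, 13.0% were called there. Between lnc-RTN4R-1 GapmeR1 and GapmeR2 the log2 fold changes were -0.42 for PFKM and -0.35 for EGLN1, where 5.92% of all genes were called. lnc-NKX2-3-1 GapmeR1 had 2 samples and no replicate 3.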

How the results depend on the processing

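In the replicate 3 comparison, 24 to 29 members were called over all alternatives. PFKP turned from -0.108 to 0.002885 without replicate 2, and its values with a replicate or group left out were -0.217 to 0.002885. Treatment calls were less stable. With the replicate block, members called went from 5 to 11 for lnc-NKX2-3-1 GapmeR1, from 0 to 5 for its GapmeR2, from 1 to 7 and 10 for the lnc-RTN4R-1 GapmeRs, from 0 to 1 for lnc-TIMM21-5 GapmeR1 and lnc-ASTN1-1 GapmeR1, from 0 to 2 and 1 for the pooled lnc-TIMM21-5 and lnc-ASTN1-1 GapmeRs, from 3 to 19 between the lnc-NKX2-3-1 GapmeRs, from 2 to 13 between those of lnc-RTN4R-1, from 0 to 2 between those of lnc-ASTN1-1, and from 0 to 4 for NTC against medium. The block changed no call of a member in the other comparisons. It raised the share of all genes called as well. That share went from 17.6% to 36.4% for lnc-NKX2-3-1 GapmeR1 and from 0% to 2.72% for its GapmeR2. For lnc-RTN4R-1 it went from 1.59% to 9.39% with GapmeR1 and from 6.62% to 22.4% with GapmeR2. Between GapmeRs it went from 13.0% to 41.8% for lnc-NKX2-3-1 and from 5.92% to 30.9% for lnc-RTN4R-1. Leaving out each replicate gave 0 to 1 members for the pooled lnc-RTN4R-1 GapmeRs, 0 to 6 for lnc-NKX2-3-1 GapmeR1, 0 to 1 and 0 to 3 for the lnc-RTN4R-1 GapmeRs, 1 to 5 and 0 to 6 between the GapmeRs of lnc-NKX2-3-1 and of lnc-RTN4R-1, and 0 to 1 for NTC against medium. Without the filter, 2 members were called for each lnc-RTN4R-1 GapmeR and 6 between the lnc-NKX2-3-1 GapmeRs. DESeq2 called 2 for lnc-RTN4R-1 GapmeR2, and NTC alone as control left 0 for the pooled lnc-RTN4R-1 GapmeRs. The cause was not tested. For single members, 362 of 399 values with a replicate or group left out and 233 of 242 values under other alternatives kept their direction and call. Counts limit ADM, ANKRD37, CA9 and EGLN3, with at most 18, 29, 5 and 1 per sample.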
